A study of Arabidopsis thaliana with 60 samples.

Results

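Cauline leaves, the leaves borne on the flowering stem of Arabidopsis thaliana, were compared with rosette leaf 12, the last-numbered leaf sampled from the rosette. The members are the 3 arrays titled as replicates A, B and C of the cauline set and the 3 of the rosette leaf 12 set, 6 arrays of the 60 in the series, and they were chosen by their titles alone. Both groups were Col-0 plants kept on soil under continuous light, at 65% relative humidity and 23 °C, and total RNA was labelled with biotin. Leaf 12 was taken at about 1 cm in length, whereas the labels give no length, number or age for the cauline leaves. The labels of leaf 12 count 11.1 ± 0.8 rosette leaves and 2.8 ± 0.6 cauline leaves at flowering on 20 plants (the kind of error is not stated), so that number 12 lies just past the mean rosette count, although the labels call it a rosette leaf. Leaf type, size and age therefore cannot be told apart in this comparison. The other 54 arrays, among them 3 each of rosette leaves 2, 4, 6, 8 and 10, are used only to set the spread and to place these 2 groups. Whether the replicates of a group were separate plants is not stated in the labels. Each p-value reflects the scatter between replicates pooled over all 60 arrays, possibly a technical one.

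As background, a shoot that turns to flowering stops making rosette leaves and forms a few cauline leaves along the bolting stem, small and without a long petiole, each with a side shoot in its axil. A leaf grows first by cell division, with cell cycle genes, cytoskeleton and stomatal precursors active, then by cell expansion, in which wall-loosening enzymes act. Mature leaves export sugar through transporters in the phloem, and ageing leaves break down protein in vacuoles and by autophagy and send the nitrogen away. FUL, SOC1, AP1 and LFY, genes that mark the passage to flowering, were not analysed here, since no named probe set carried them.

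Leaf markers were bright in both groups. RCA, which activates Rubisco, read 4319, 4327 and 4470.0 on the 3 cauline arrays and 3712, 4197 and 3793 on the 3 leaf 12 arrays, and LHCB4.1, a light-harvesting protein, read 3959, 4110.1 and 4038 and 4548, 5187 and 5085, all in the top 1% of probe sets of their arrays. Most markers of other tissues were dim. The pollen and anther genes ACT12 and AMS, the xylem gene IRX15, the meristem gene CLV3, the root hair gene EXPA7 and the seed gene OLEO3 did not pass the filter on dim signals, and none read above 17 on any of the 6 arrays. The root gene PYK10 passed it, with 5.29, 15.6 and 5.91 in cauline leaves and 31.4, 17.4 and 22.1 in leaf 12. GUT2, a xylan synthesis gene of woody tissue, read 46.5 ± 2.54 (SD, n = 3) in cauline leaves and 54.0 ± 6.04 in leaf 12.

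Signals were MAS5 intensities in arbitrary units, scaled on each array to a common trimmed mean. Array medians ran from 36.2 to 37.5 in cauline leaves and from 36.4 to 38.3 in leaf 12, and 3 arrays a group set the precision. Across the probe sets tested, Pearson's r of the log2 signals was 0.984 to 0.991 within cauline leaves, 0.985 to 0.987 within leaf 12 and 0.778 to 0.795 between them. One measure of RNA quality moved with the groups. For the ubiquitin control, the ratio of the 3′ to the 5′ probe set was 1.97 to 2.09 on the cauline arrays and 3.63 to 4.32 on the leaf 12 arrays, while that of the GAPDH control was 1.202 to 1.499 and 1.31 to 1.53. The actin ratio was above the others on each array and overlapped between the groups, at 6.84 to 9.06 in cauline leaves and 4.99 to 10.7 in leaf 12. The part of RNA quality in the results was not tested. The 25S rRNA control varied within each group, from 74.1 to 515 in cauline leaves and from 158 to 2262 in leaf 12.

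A probe set was called when its difference passed an adjusted p of 0.05 (limma, Benjamini-Hochberg over 15808 probe sets) and reached at least 1 on the log2 scale. All differences below are cauline leaves minus leaf 12 in log2(signal + 6.14), which understates the change of dim genes. Of the probe sets tested, 2214 were higher in cauline leaves (14%) and 2253 were lower (14.3%), so that 28.3% were called, and the median difference over all of them was 0.04. Among the 8620 probe sets named for 1 gene 25.9% were called, 12.2% higher and 13.7% lower. These shares are the background against which each gene list below is to be read. The 3 and 3 signals did not overlap for 74% of all probe sets, so separation of the arrays was common and is given for single genes as a description.

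**Figure D1:**
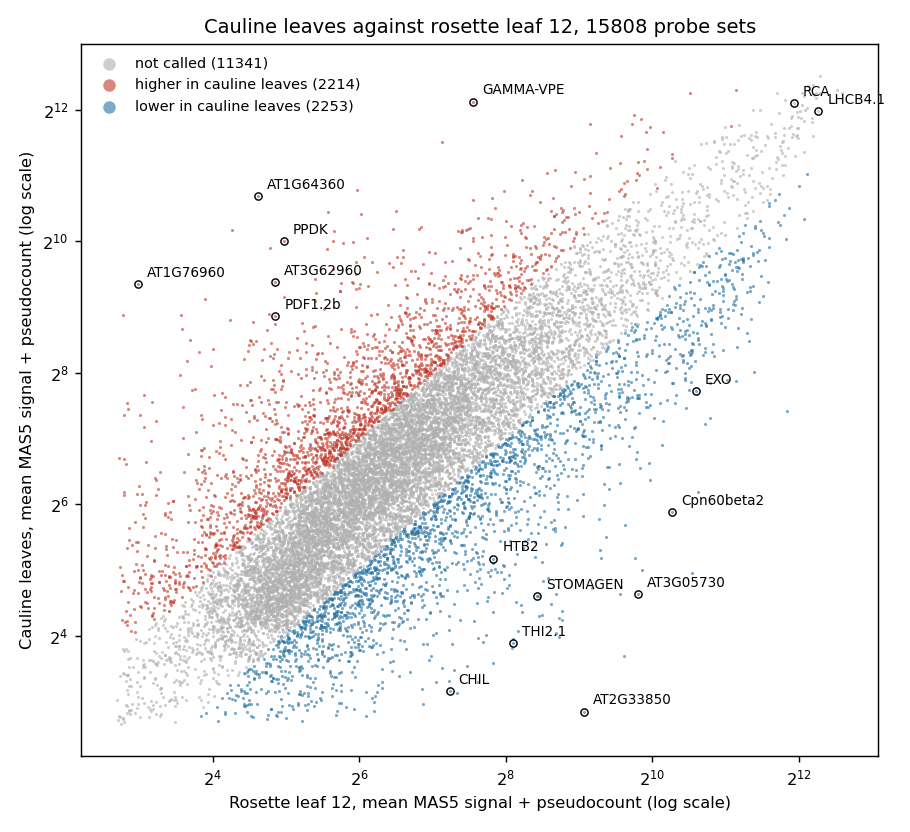
Mean MAS5 signal plus the pseudocount in rosette leaf 12 (x axis) and cauline leaves (y axis), both on log scales, for the 15808 probe sets tested; red points were called higher and blue points lower in cauline leaves, and circles mark genes named in the text. The 2 colours cover 2214 and 2253 points, while RCA and LHCB4.1 lie at the bright end near the diagonal.

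The largest increases were of AT1G76960 and AT1G64360, for which the annotation used here gives no more than a locus name. AT1G76960 read 692, 433 and 810.5 on the cauline arrays and 1.74, 1.86 and 1.604 on the leaf 12 arrays, a difference of 6.32 (SE 0.15, adjusted p = 3.41e-38). AT1G64360 read 1766, 1432 and 1744 against 18.8, 14.4 and 22.1 (difference 6.08, adjusted p = 1.93e-29). Both went from the dim end of the leaf 12 arrays to bright signals on every cauline array. PPDK, pyruvate orthophosphate dikinase, which serves nitrogen remobilisation in ageing leaves, read 978, 1016 and 1059.7 in cauline leaves and 27.3, 24.8 and 23.4 in leaf 12, 32.7 times higher after the pseudocount is added (difference 5.03, SE 0.10, adjusted p = 3.8e-41). GAMMA-VPE, the vacuolar processing enzyme of vegetative tissue, was among the brightest genes of the cauline arrays. It read 4290.3, 4793 and 4284 there and 164, 189 and 191 in leaf 12, a difference of 4.57 (SE 0.067, adjusted p = 5.48e-48). The other 8 of the 12 largest increases were loci without a gene name in the annotation, AT4G14020, AT1G80130, AT1G30250, AT3G03870, AT3G19550, AT5G39520, AT2G15020 and AT3G62960, with differences from 4.52 to 5.22.

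The largest decrease was of AT2G33850, which read 0.318, 0.227 and 2.57 in cauline leaves and 452, 514 and 625 in leaf 12 (difference -6.23, SE 0.21, adjusted p = 8.58e-32). AT3G05730 read 13, 15.98 and 27.3 against 965, 858 and 846 (difference -5.21), and AT3G16670 19.9, 14.4 and 22.1 against 722, 856 and 672 (difference -4.93). These 3 loci thus lay below the array median on each cauline array and were bright on all leaf 12 arrays. Cpn60beta2, a subunit of the chaperonin that folds proteins in the chloroplast, read 51.3, 52.7 and 53.7 in cauline leaves and 1259, 1231 and 1210.2 in leaf 12. Its difference was -4.40 with the small SE of 0.068 (adjusted p = 4.75e-47), and its cauline signals lay below those of all 57 other arrays of the series. ATLP-1, a thaumatin-like protein, read 11.2, 17.4 and 12.5 against 325, 368 and 368 (difference -4.19). Its leaf 12 signals were thus all above 300 and its cauline signals all below 20. MSRB6, a methionine sulfoxide reductase that repairs oxidised protein, read 16.8, 19.3 and 12.4 against 359, 408 and 393 (difference -4.15). The rest of the 12 largest decreases were THI2.1, described with the defence genes, and AT4G29020, AT1G31690, AT4G29030, AT5G62210 and AT5G45670, with differences from -4.43 to -4.26. A second probe set of AT1G31690 gave -3.92.

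**Figure D2:**
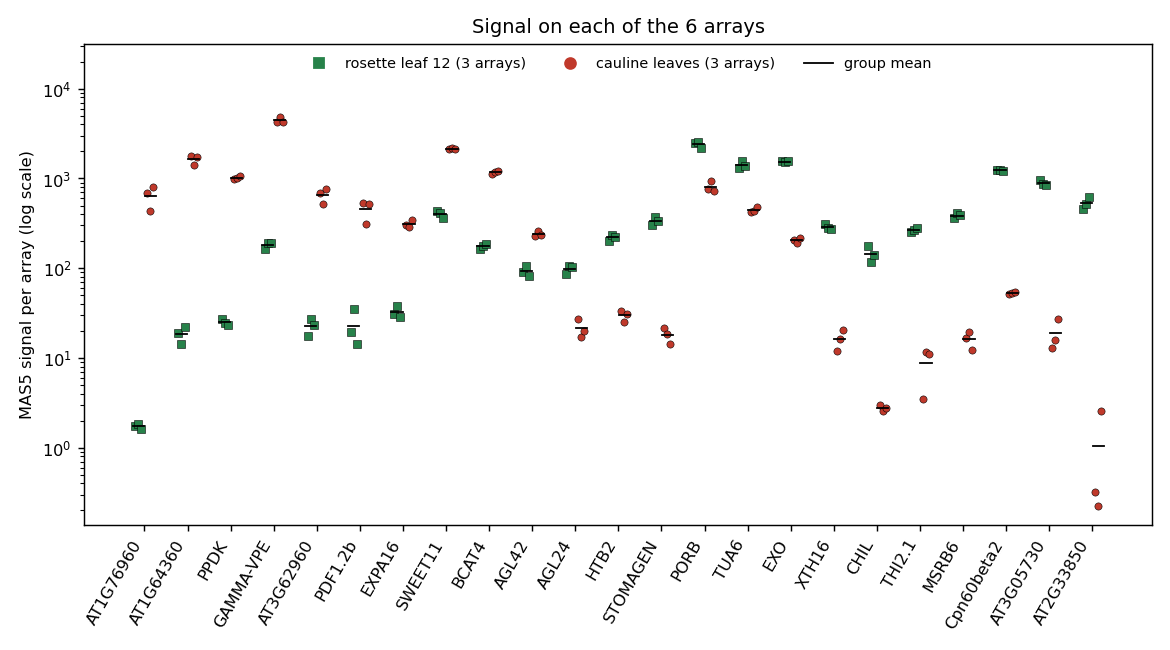
MAS5 signal on each of the 3 rosette leaf 12 arrays (green squares) and the 3 cauline arrays (red circles) for 23 genes, on a log axis, with the group means as black lines. The 2 groups are separate for each gene shown, from AT1G76960 at the left, high on the cauline arrays, to AT2G33850 at the right, high on the leaf 12 arrays.

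Genes of cell division were lower in cauline leaves. Of 20 such genes with a named probe set 18 were tested, 13 were lower and none was higher. Their median difference was -1.40 beside 0.04 for all probe sets. HTB2, a histone H2B, read 33.5, 25.2 and 30.97 in cauline leaves and 203, 237 and 225 in leaf 12 (difference -2.67, SE 0.099, adjusted p = 3.12e-30). AUR1, an Aurora kinase of mitosis, read 20.2, 25.4 and 23.3 against 148, 135 and 132 (difference -2.31, SE 0.12), and its relative AUR2 differed by -2.29. The cauline signals of these genes were a small fraction of those of leaf 12 on each array. TOPII, a DNA topoisomerase, differed by -2.61 and PRL, the MCM7 subunit of the replication helicase, by -2.37. Next came the polymerase subunit gene POLA3 (-1.93) and the spindle checkpoint genes BUBR1 (-1.81) and BUB3.1 (-1.62). Members not called included the anaphase gene HBT (-0.17), the cell cycle inhibitor SIM (0.23) and ATMAP65-6 (0.65), a microtubule bundling protein. In whole leaves, fewer cells of a type and less RNA per cell cannot be told apart, here and in all lists below. Several of these genes are dim in cauline leaves, and 8 of the 18 were lower with a pseudocount 4 times larger.

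Cytoskeleton genes were mostly lower too. Of 8 tubulin and actin genes tested 6 were lower and none higher (median -1.41). TUA6, an alpha-tubulin, read 419.9, 436 and 479 in cauline leaves and 1317, 1571 and 1363 in leaf 12 (difference -1.66, SE 0.067, adjusted p = 1.22e-28). The beta-tubulins TUB1, TUB7 and TUB5 differed by -2.72, -2.54 and -1.16, and the actin ACT11 by -2.42. PGY1, a protein of the large cytosolic ribosomal subunit and the single gene of that list with a named probe set, read 374, 429 and 387 against 1352, 1229 and 1408 (difference -1.73). Of the 2 ribosome assembly genes tested, AT5G14520, which encodes PESCADILLO, was lower (-1.36) and RBL was not called (-0.40).

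Genes of chlorophyll synthesis were also lower in cauline leaves, while genes of the photosynthetic complexes were mostly not called. Of 8 chlorophyll synthesis genes tested 6 were lower and none higher (median -1.63). HEME1, a uroporphyrinogen decarboxylase, read 108, 122.6 and 120.2 in cauline leaves and 601, 601 and 539 in leaf 12 (difference -2.25, SE 0.087, adjusted p = 2.15e-29). CHLI2, a subunit of the magnesium chelatase, differed by -1.91, GSA1, which makes 5-aminolevulinate, by -1.79, HEME2 by -1.70 and HEMB1 by -1.31. The light-dependent reductase PORB remained bright in both groups, with 759.9, 947 and 734 against 2490.3, 2554 and 2168 (difference -1.56). CHLM (-0.56) and HEMA2 (-0.42) were not called. Of the 9 tested genes of the photosystems and light harvesting, PGRL1B of cyclic electron flow was higher (1.18) and none was lower (median -0.30). The others lay between -0.97 (PSB27) and 0.26 (LHCB4.2). Without cauline replicate 1, 1 gene was lower. None of 3 Calvin cycle genes was called in either direction, from SBPASE (-0.59) to RCA (0.17), and SBPASE passed the adjusted p but not the size. Of 8 nuclear genes listed for the plastid NDH complex 3 were lower (median -0.45), CRR22 (-2.01), CRR41 (-1.38) and CRR21 (-1.15). CRR22 and CRR21 are RNA editing factors rather than subunits, and CRR21 was not called with the larger pseudocount (-0.87). The genes named for subunits, NdhN (-0.46), NdhL (-0.42) and NdhS (0.64), were not called.

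**Figure D3:**
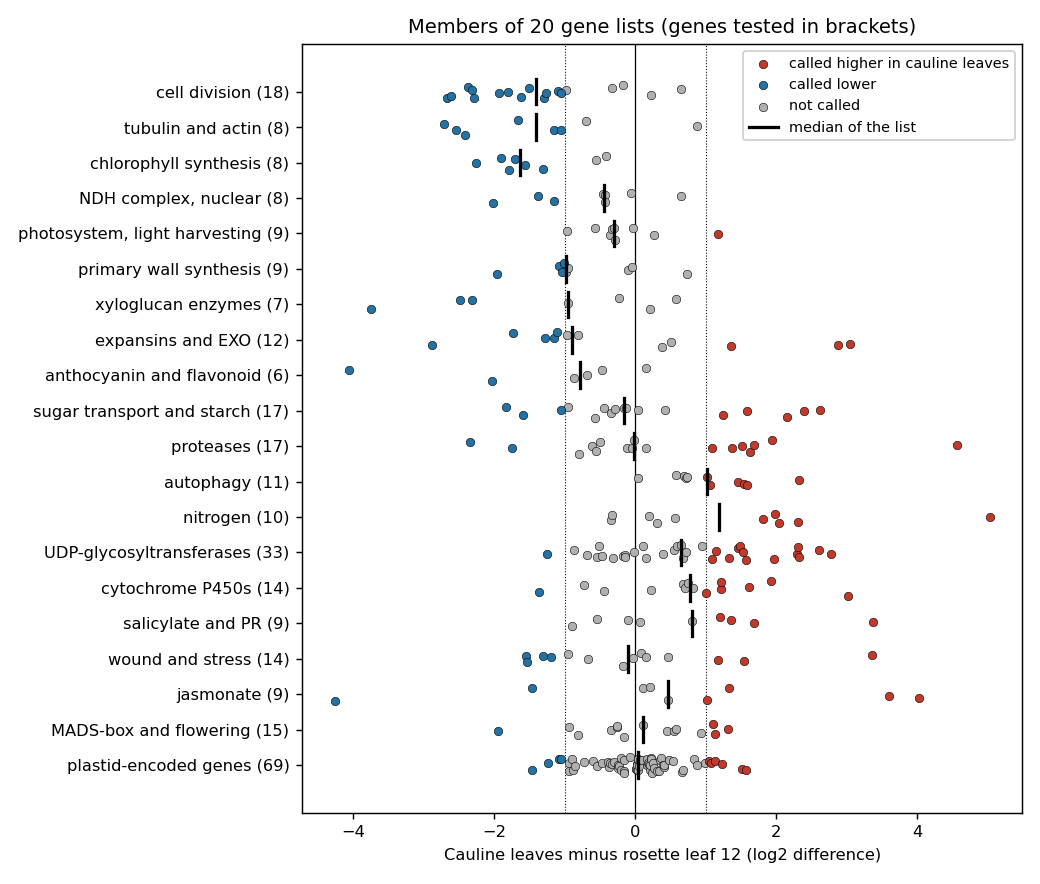
Log2 difference, cauline leaves minus rosette leaf 12, of each tested member of 20 gene lists (numbers tested in brackets), with called genes in red or blue, the median as a black bar and dotted lines at the threshold of 1. Cell division has 13 of 18 members called lower and autophagy 6 of 11 called higher, while the 69 plastid-encoded genes centre near 0.

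Of the genes of cell fate in the leaf surface, STOMAGEN, the mesophyll peptide that raises the number of stomata, had the largest difference. It read 21.6, 18.5 and 14.4 in cauline leaves and 304, 370.4 and 340.0 in leaf 12 (difference -3.83, SE 0.11, adjusted p = 1.05e-34). SPCH, the factor that starts the stomatal lineage, read 1.21, 3.32 and 3.18 against 28.4, 39.4 and 32.4 (difference -2.18, SE 0.24), so that its cauline signals lay below the pseudocount. FMA, which acts at the last division into guard cells, differed by 0.13 and was not called. Among 4 trichome genes (median -0.35) TRY, an inhibitor of trichome fate, was higher (76.9, 65.8 and 79.1 against 23.4, 30.1 and 19.5, difference 1.41) and ATMYC1, a bHLH factor of trichome initiation, was lower (-1.68). SIM, which is counted with the cell cycle genes too, and GIS (-0.93) were not called. A second trichome gene was called lower without cauline replicate 3 or without leaf 12 replicate 1.

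Of 8 leaf polarity and shape genes tested, 2 were higher and none lower (median -0.01). PHV, a class III HD-ZIP factor of the upper leaf side, read 189, 205 and 210.1 in cauline leaves and 93.1, 81.7 and 88.2 in leaf 12 (difference 1.14), and CYP78A9, which promotes organ growth, 51.6, 62.1 and 47.7 against 12.6, 11.5 and 16.3 (difference 1.61). The lower-side genes YAB3 (-0.83) and YAB5 (-0.41) were not called. ULT1, a regulator of meristem size, was lower (14.1, 20.4 and 20.8 against 85.1, 80.5 and 91.3, difference -1.91), and LSH9 was not called (-0.54).

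Of 44 flowering genes with a named probe set, 29 were too dim to be tested. Of the 15 tested, 3 were higher and 1 lower (median 0.11). AGL42, a MADS-box gene related to SOC1, read 229, 261 and 232 in cauline leaves and 90.6, 106 and 82.2 in leaf 12 (difference 1.32, SE 0.22, adjusted p = 5.5e-07). Every cauline signal of AGL42 was above those of the 57 other arrays. AGL24, a MADS-box promoter of flowering, went the other way, with 27.1, 17.03 and 20.05 against 86.4, 107 and 104 (difference -1.95, SE 0.19, adjusted p = 4.17e-13). AGL30 (1.13) and AGL62 (1.11) were dim in both groups, and neither was called with the larger pseudocount. AGL30 also missed the call without cauline replicate 2 (0.99) or leaf 12 replicate 2 (0.90, adjusted p = 0.0549), and AGL62 without leaf 12 replicate 3 (0.85). FD, the partner of florigen, differed by 0.93 and was not called. The number called lower was 2 without either cauline replicate 2 or 3. Of the lists for floral organs, woody walls and cuticle, the tested genes SPT (-0.33), 4CL8 (-0.75), GUT2 (-0.19), WSD1 (0.41) and AT4G13840 (0.56) were not called.

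Cell wall lists held called genes of both signs for the expansins and lower ones alone for the 3 others. Of 12 expansin genes tested, with EXO counted among them, 3 were higher and 5 lower (median -0.89). EXPA16, an alpha-expansin that loosens walls, read 305, 289 and 345 in cauline leaves and 30.8, 37.8 and 28.8 in leaf 12 (difference 3.05, SE 0.14, adjusted p = 1.4e-26). EXPA8 read 340.1, 344 and 346 against 54.2, 40.8 and 31.7 (difference 2.88) and the expansin-like EXLB1 287, 295 and 324 against 92.8, 138 and 115 (difference 1.36). These 3 genes stood above all 18 rosette arrays, and EXPA16 and EXLB1 above all 57 others. EXO, a secreted protein of brassinosteroid-promoted growth rather than an expansin, read 207, 189 and 215 against 1551, 1531 and 1553 (difference -2.89, SE 0.071, adjusted p = 3.67e-38). The expansin-like EXLA2, EXLA1 and EXLA3 differed by -1.73, -1.27 and -1.15, and the beta-expansin EXPB3 by -1.11. With the larger pseudocount 3 in place of 5 genes of this list were lower.

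Of 7 xyloglucan enzymes 3 were lower and none higher (median -0.96). XTH16 read 11.8, 16.2 and 20.2 in cauline leaves and 311, 281 and 274 in leaf 12 (difference -3.74, SE 0.11, adjusted p = 1.52e-34), XTH32 differed by -2.48 and XTH18 by -2.32. Wall synthesis genes gave 4 lower of 9 (median -0.98). CSLA03, of the glucomannan synthase family, had the largest of these differences (30.8, 24.03 and 31.4 against 122, 131 and 136, difference -1.97). CSLC12, CSLC5 and CSLC04, of the family that makes the xyloglucan backbone, lay near the threshold at -1.08, -1.04 and -1.01, and CSLA03 was the single one of the 4 called with the larger pseudocount. The call of CSLC04 was also lost without cauline replicate 1 or 3 (-0.96 in each case), that of CSLC12 without leaf 12 replicate 3 (-0.92) and after quantile normalization (-0.94), and that of CSLC5 with array weights (-0.99). ATPMEPCRB, a pectin methylesterase, read 17.2, 16.4 and 16.5 against 260.3, 288 and 281 (difference -3.63), while the other 3 pectin genes tested lay between 0.29 and 0.43 and were not called.

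Hormone genes showed mixed directions. The 3 gibberellin receptors GID1B (1.96), GID1C (1.16) and GID1A (1.14) were all higher (list median 1.15 over 4 genes), GID1B with 86.9, 73.5 and 78.4 in cauline leaves and 17.6, 15.3 and 14.6 in leaf 12. GID1C and GID1A lay close to the threshold and missed it with the larger pseudocount (0.78 and 0.98). The F-box protein SLY1, which acts with these receptors, differed by 0.42 and was not called. WES1, which conjugates auxin to amino acids, read 105, 129 and 118 against 22.2, 18.8 and 19.7 (difference 2.22, SE 0.12, adjusted p = 4.1e-23), and its family member GH3.3 was dimmer, at 37.8, 50.1 and 44.1 against 16.4, 8.13 and 15.2 (difference 1.39). GH3.3 was not called with the larger pseudocount (0.86). Of the 9 auxin genes (median 0.49) these 2 were higher and none lower, and 4 were higher without leaf 12 replicate 3. The cytokinin response regulators differed in sign, RR16 higher (278, 221 and 266 against 110.1, 127 and 101, difference 1.13) and ARR15 lower (7.25, 16.2 and 17.9 against 80.4, 77.1 and 73.2, difference -2.10). EIN3, the central ethylene factor, was higher (1.17), as was the brassinosteroid receptor BRL1 (1.27), which was dim and not called with the larger pseudocount (0.57).

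Of 5 defensins and thionins tested, 2 were higher, 2 lower and PDF1.4, at 12.9 against 11.5, was not called (0.12). The plant defensin PDF1.2 read 408, 243 and 375 in cauline leaves and 23.7, 21.9 and 19.7 in leaf 12 (difference 3.61, SE 0.14, adjusted p = 9.61e-30). Its close copy PDF1.2b, measured by a probe set that can bind related transcripts, gave a difference of 4.02. THI2.1, a thionin that like the defensins is induced by jasmonate, read 3.501, 11.6 and 10.97 against 252, 269 and 284 (difference -4.26, SE 0.20, adjusted p = 5.65e-26). Its relative THI2.2 was dim and lower (-1.46), and it was not called with the larger pseudocount (-0.74). MYC3, a jasmonate transcription factor, was higher (161, 181 and 163 against 72.1, 54.6 and 63.1, difference 1.34) and its relative MYC4 near the threshold (1.03). In all, 4 of 9 jasmonate genes were higher and 2 lower (median 0.46).

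Of 9 salicylic acid and pathogenesis-related genes 4 were higher and none lower (median 0.81). CHI, here a chitinase, read 366, 367 and 353 in cauline leaves and 33.4, 28.6 and 26.6 in leaf 12 (difference 3.37, SE 0.14, adjusted p = 3.62e-28). The WRKY factors WRKY6, WRKY47 and ZAP1 differed by 1.68, 1.36 and 1.2, whereas WRKY53 (0.81), WRKY22 (-0.90) and WRKY20 (0.08) were not called. Of 14 genes that respond fast to wounding and stress 3 were higher and 4 lower (median -0.10), the latter 2 with the larger pseudocount. CML41, a calmodulin-like protein of plasmodesmata, read 236, 185 and 257 against 16.5, 21.4 and 12 (difference 3.36, SE 0.16). The ubiquitin ligases of this list split, PUB25 (1.54) and PUB24 (1.18) being higher and PUB22 (-1.54) and PUB23 (-1.19) lower. ORA47, an ERF factor, was lower (90.98, 93.3 and 98.4 against 235, 264 and 227, difference -1.30), as was the kinase ATMPK13 (-1.55), which was not called with the larger pseudocount (-0.78).

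Genes of cold and drought protection were likewise divided, 3 of 10 higher and 1 lower (median -0.16). COR47, a dehydrin, read 829, 859 and 882 in cauline leaves and 349.6, 332 and 346 in leaf 12 (difference 1.31, SE 0.071, adjusted p = 4.7e-23). The late embryogenesis protein LEA4-5 was higher from a dim level (28.8, 28.3 and 35.9 against 4.36, 1.62 and 1.43, difference 2.12), and RD2 lay at the threshold (1.01). The call of RD2 was lost without cauline replicate 3 (0.99), without leaf 12 replicate 3 (0.95) and with the larger pseudocount (0.97). COR15B, a chloroplast protein of cold tolerance, was lower (109, 61.6 and 108 against 249, 306 and 337, difference -1.65), and its signals lay below those of all 57 other arrays. Flavonoid genes gave 2 lower of 6 and none higher (median -0.78). CHIL, a chalcone isomerase-like protein that aids flavonoid synthesis, read 2.96, 2.56 and 2.79 against 176, 119 and 139 (difference -4.06, SE 0.23, adjusted p = 1.54e-22), and DFR, the reductase on the way to anthocyanin, 6.18, 8.71 and 11.7 against 59.3, 52.7 and 51.6 (difference -2.03). All cauline signals of CHIL were below the pseudocount and below those of the 57 other arrays.

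Of 11 autophagy genes tested 6 were higher in cauline leaves and none lower, and their median difference was 1.03. ATG8F, an ATG8 protein of the autophagosome membrane, was bright throughout and read 1703, 1781 and 1613 in cauline leaves and 553, 605 and 525 in leaf 12 (difference 1.59, SE 0.06, adjusted p = 7.1e-30). ATG8B differed by 2.33, APG8A by 1.54, the gene labelled APG8H (AT3G15580) by 1.45 and ATG8G by 1.06. ATG8G was not called with the larger pseudocount (0.85), after quantile normalization (0.97) or without cauline replicate 3 (0.96). ATG3, which attaches ATG8 to lipid, differed by 1.03. ATG8E (0.04), ATG8H (AT3G06420, 0.58), ATG8C (0.70) and ATG8D (0.73) were not called. Of these, ATG8H, ATG8C and ATG8D passed the adjusted p but not the size. At a log2 threshold of 0.5, 10 of the 11 genes were higher.

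Proteases gave 7 higher and 2 lower of 17 tested (median -0.02). Beside GAMMA-VPE the higher ones were BETA-VPE (1.37), the aspartic protease APA1 (1.51), S1P (1.10) and the subtilases SBT3.3 (1.95), ATSBT5.2 (1.69) and SBT3.5 (1.64). SBT3.3, dim in leaf 12, was not called with the larger pseudocount (0.96). ATSBT5.2 read 83.1, 91.6 and 86.2 in cauline leaves and 25.4, 19.99 and 22.8 in leaf 12. The subtilases SBT1.3 (71.4, 74.1 and 64.6 against 354, 422 and 372, difference -2.35) and SBTI1.1 (difference -1.74) were lower. Of 8 senescence genes tested, PPDK and WRKY6 were higher and none was lower (median 0.73), and SAG101 (0.81), WRKY53 (0.81) and SAG29 (-0.28) were not called.

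Sugar transport genes differed member by member. SWEET11, a sucrose exporter of the phloem parenchyma, read 2137, 2198 and 2119 in cauline leaves and 431, 413 and 366 in leaf 12 (difference 2.40, SE 0.062, adjusted p = 4.86e-37). SWEET13, a related exporter, read 166, 127 and 177 against 20.7, 19.3 and 20.1 (difference 2.62), and its cauline signals were above those of all 57 other arrays. SWEET4 was higher by 1.25. SWEET17, a fructose transporter of the vacuole membrane, was lower (75.3, 66.3 and 65.1 against 263, 240.2 and 281, difference -1.83), as was SWEET10 (-1.05). SWEET1, SWEET2 and SWEET16 were not called (-0.13, -0.57 and -0.95). ATSPS4F, a sucrose-phosphate synthase, and APL3, a large subunit of the starch enzyme ADP-glucose pyrophosphorylase, were higher (2.15 and 1.59), and DPE1, a plastid enzyme of starch breakdown, was lower (-1.59). In all, 5 of 17 genes were higher and 3 lower (median -0.15).

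Of 10 nitrogen genes 5 were higher and none lower, with a median of 1.2 that includes PPDK, counted in this list too. The glucosinolate transporters GTR1 and GTR2 are also counted, and PPDK and GTR2 are among the 5 higher. AT3G21670, which encodes NPF6.4, read 674, 692 and 583 in cauline leaves and 154, 142 and 162 in leaf 12 (difference 2.04). AT1G68570, which encodes NPF3.1 of the same transporter family, read 642, 629 and 651 against 130.5, 125 and 117 (difference 2.31, SE 0.084, adjusted p = 1.2e-30). The high-affinity nitrate transporter NRT2.5 was higher from a dim level (87.9, 67.2 and 105 against 19.9, 16.1 and 23.9, difference 1.82). GTR2 carries glucosinolates, the defence compounds of this plant family, and was higher (636, 614 and 585 against 138, 148 and 165, difference 1.98), while GTR1 was not called (-0.34). BCAT4, the first enzyme of glucosinolate chain elongation from methionine, read 1122, 1168 and 1218 against 166, 178 and 189 (difference 2.68, SE 0.092, adjusted p = 7.97e-32). PYK10, a glucosidase of roots, was dim in both groups and just called lower (-1.02), a call lost without either cauline replicate 1 or 3 (-0.85 and -0.89) or leaf 12 replicate 1 (-0.84), after quantile normalization (-0.89) and with the larger pseudocount (-0.53).

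In the list of metal supply 3 of 8 genes were lower and none higher (median -0.32). AT1G47400 (4.42, 5.68 and 1.36 against 131, 155 and 147, difference -3.94) and AT5G05250 (3.199, 1.901 and 9.795 against 164, 103 and 188, difference -3.85) carry no gene name in the annotation. Both were at the dim end on all cauline arrays. BHLH101, a factor of the iron deficiency response, was dim and lower (-1.29), a call lost with the larger pseudocount (-0.55), and the iron regulator PYE differed by 0.30 without being called. In the list of sulfur and phosphate supply (7 genes, median -0.82) MSRB6 and the glucosidase BGLU28 (-1.43) were lower and MSRB3 higher (122.5, 116 and 142 against 47.3, 51.9 and 42.5, difference 1.31). BGLU28 was dim and not called with the larger pseudocount (-0.76). Both MSRB genes encode methionine sulfoxide reductases, and MSRB9 (-0.88) and MSRB5 (-0.82) were not called.

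A list of 14 loci drawn up around the glutaredoxins ROXY2 and GRX480 held large differences of both signs, 4 higher and 5 lower (median -0.03). AT3G62960 read 690.1, 523 and 760.5 in cauline leaves and 17.7, 27.4 and 23.1 in leaf 12 (difference 4.52, SE 0.18, adjusted p = 6.92e-29), and AT2G47880 933, 808 and 954 against 109.8, 125 and 138 (difference 2.79). AT5G11930 (1.59) and GRX480 (1.04) were higher as well. The 4 loci AT4G15660, AT4G15680, AT4G15690 and AT4G15700, which lie close together by their numbers, were all lower (-2.33, -3.20, -2.78 and -2.03). AT4G15680 read 10.02, 1.09 and 1.68 against 127, 77.1 and 58.1. Neighbouring loci of similar sequence can share probe signal, so these 4 may not be 4 separate measurements. Near AT3G62960 by number, AT3G62930 was lower (-1.52) and AT3G62950 was not called (0.26).

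Among the named members of large enzyme families tested, more were higher than lower. Of 33 UDP-glycosyltransferases tested 13 were higher and 1 lower (median 0.65). Of 14 cytochromes P450 tested 6 were higher and 1 lower (median 0.78). Most of these P450 genes belong to the CYP71B subfamily, several of them at neighbouring loci from AT3G26200 to AT3G26330. Neighbours of similar sequence can share probe signal, so they may not be separate measurements. IAGLU, which glucosylates auxin, read 152, 205 and 171 in cauline leaves and 30.9, 24.4 and 35.2 in leaf 12 (difference 2.33, SE 0.16, adjusted p = 1.09e-18). UGT71B6, which acts on abscisic acid, was higher from a very dim level (47.4, 51.8 and 41.2 against 1.39, 1.68 and 1.51, difference 2.78), as was UGT73B5 (2.61). GT72B1 (459, 517 and 447 against 102, 77.6 and 97.6, difference 2.29) and UGT72E1 (2.31) act on phenolic compounds. The lower one was UGT76C2, which glucosylates cytokinin (-1.25), and it was not called with the larger pseudocount (-0.90). Of the P450 enzymes CYP71B23 had the largest increase (294, 248 and 336 against 27.7, 29.5 and 33.8, difference 3.03), followed by CYP71B24 (1.93), while CYP71B22 was lower (98.5, 102 and 104 against 272, 254 and 288, difference -1.37). With the stricter filter on dim probe sets 3 P450 genes were called higher in place of 6. Of 4 clock and light genes (median 0.56) AFR (181, 145 and 197 against 31.1, 24.1 and 29.9, difference 2.38) and TIC (1.24) were higher. GI (-0.11) and COR27 (-0.67) were not called.

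For the 69 plastid-encoded genes tested, 1 array of leaf 12 stood apart. The median signal of these genes was 1373, 1393 and 1340.3 on the cauline arrays and 1410.4, 817 and 1579.9 on the leaf 12 arrays, lowest on leaf 12 replicate 2. Of the list 6 were higher and 4 lower (median 0.04). Among the higher, psbD of photosystem II read 2387, 1960.1 and 2195 in cauline leaves and 1384, 208 and 1309 in leaf 12, so that the difference of 1.58 (SE 0.32) rested on replicate 2 of leaf 12. Its relative psbA showed the same (2240.2, 3045 and 2101 against 1739.7, 190.4 and 1773), and without that array none of the 69 was higher. When limma was fitted on the 6 compared arrays alone, 3 of the list were higher and psbA was not called (adjusted p = 0.0586). The lower genes were those of ribosomal proteins, rps15 (159, 192 and 166 against 649, 294 and 586, difference -1.46), rpl22 (-1.23), rpl20 (-1.08) and rps19 (-1.05). Of these 4, 2 were called without leaf 12 replicate 3, and 2 after quantile normalization. Of 9 mitochondrial genes tested (median 0.47), matR was higher (1.25) from a dim level, a call lost with the larger pseudocount (0.49). Its probe set can bind related transcripts, and no gene of that list was higher without such probe sets or with the stricter filter on dim ones, while 2 were higher without leaf 12 replicate 1 or 3.

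The same fit was used to set the cauline leaves beside each other rosette leaf, and because these comparisons share the cauline arrays, their values are given side by side without a test of likeness. The number of probe sets called was 4467 against leaf 12, 3556 against leaf 10, 3041 against leaf 8, 2201 against leaf 6, 1654 against leaf 4 and 1477 against leaf 2, or 28.3%, 22.5%, 19.2%, 13.9%, 10.5% and 9.34% of those tested. The array correlation with cauline leaves ran from 0.831 to 0.844 for leaf 10 and from 0.904 to 0.915 for leaf 2. In leaf 6 the tissue label of 1 array names leaf 4 instead. Of the 2214 higher probe sets, 1390 (62.8%) had all cauline signals above those of all 18 rosette arrays, beside 19.1% of all probe sets. Of the 2253 lower ones, 1055 (46.8%) had them below all 18, beside 10.8% of all. Part of this separation, that from leaf 12, comes with the call itself.

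Against leaf 2, the lowest-numbered of the rosette leaves compared, 1 of 18 cell division genes (higher), none of 8 chlorophyll synthesis genes, none of 8 tubulin and actin genes and none of 11 autophagy genes were called, beside 9.34% of all probe sets. The list medians were -0.049, -0.12, -0.39 and 0.19, beside 0.076 for all. The genes that follow are examples chosen after their values were seen. For HTB2 the mean signal was 38.8 ± 3.32 in leaf 2, 94.6 ± 11.8 in leaf 6, 222 ± 17.2 in leaf 12 and 29.9 ± 4.27 in cauline leaves, all ± SD with n = 3. Against leaf 2 the differences of the division genes AUR1, AUR2 and PRL were -0.10, -0.18 and -0.16, and those of the chlorophyll genes HEME1, CHLI2 and PORB -0.012, -0.19 and 0.14. STOMAGEN went from 16.1 ± 0.857 in leaf 2 through 171 ± 11.8 in leaf 8 to 338 ± 33.4 in leaf 12, and stood at 18.1 ± 3.598 in cauline leaves. Among the increases, AT1G76960 differed from leaf 2 by 0.14, PPDK by 0.58, SWEET11 by 0.22, CHI by 0.30 and BCAT4 by 0.086. None of the differences from leaf 2 of the genes named in this paragraph reached 1.

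Other genes kept a difference against the rosette leaves given here, and they too were chosen after their values were seen. AT3G62960 was higher by 4.13 against leaf 2, 5.19 against leaf 6 and 4.87 against leaf 10, and EXPA16 by 3.68, 2.92 and 2.68. AGL42 went along the rosette from 7.18 ± 2.29 in leaf 2 to 35.7 ± 4.91 in leaf 10 and 92.8 ± 11.8 in leaf 12, and was highest in cauline leaves at 241 ± 17.5. It therefore differed most from leaf 2 (4.22) and least from leaf 12. EXO was bright in every rosette leaf, between 1545 ± 12.1 in leaf 12 and 2442 ± 77.6 in leaf 6, against 204 ± 13.4 in cauline leaves. AT5G05250 and AT1G47400 differed from leaf 2 by -5.51 and -4.62, CHIL by -3.15, DFR by -4.93 and SWEET17 by -2.84. SWEET17 and DFR were thus further from leaf 2 than from leaf 12.

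**Figure D4:**
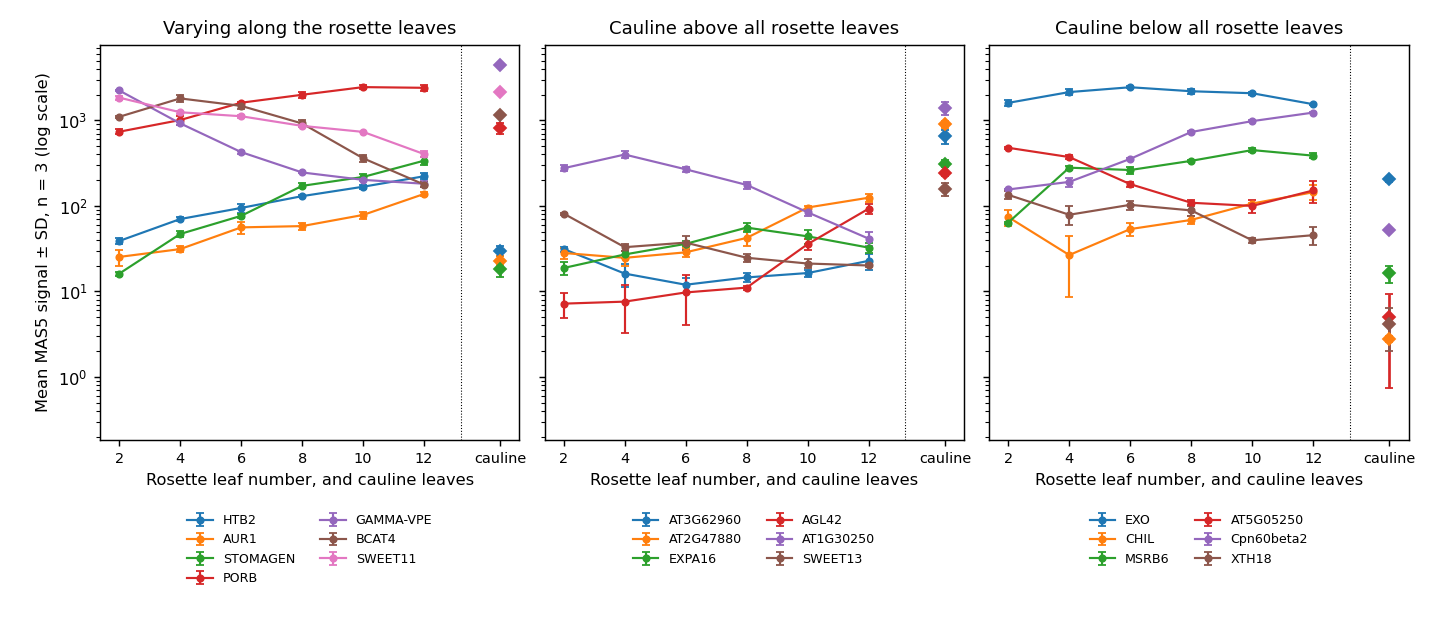
Mean MAS5 signal ± SD (n = 3, log axis) along rosette leaves 2 to 12 (joined points) and in cauline leaves (diamonds) for 19 genes in 3 panels. In the left panel HTB2 and STOMAGEN are low in leaf 2 and in cauline leaves and high in leaf 12, in the middle panel AT3G62960 and EXPA16 are higher in cauline leaves than in any rosette leaf, and in the right panel EXO and CHIL are lower; lower error bars longer than the mean are cut short for the log axis.

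For a further set the sign depended on the rosette leaf. CML41 was 3.36 higher than in leaf 12 and -2.02 against leaf 2, where its mean signal was 929.7 ± 19.1 beside 226 ± 36.7 in cauline leaves (adjusted p = 6.59e-16). AGL24 was lower than in leaf 12 and differed from leaf 2 by 1.79 (adjusted p = 1.93e-11), where its mean signal was 1.77 ± 0.803. SBT1.3, SBTI1.1, CYP71B22 and AT4G29020, all lower than in leaf 12, were higher than in leaf 2 by 1.61, 1.61, 1.84 and 1.23. PDF1.2 was 3.61 higher than in leaf 12 and -1.56 against leaf 4, where it reached 999.6 ± 42.1 (adjusted p = 2.23e-14). THI2.1 was bright in leaf 12 alone among the rosette leaves, at 268 ± 15.8 beside 41.9 ± 4.93 in leaf 10 and 9.32 ± 2.24 in leaf 8.

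Levels in the other groups place some of the named genes. In senescing leaves of Col-0, GAMMA-VPE read 4967 ± 389, PPDK 1414 ± 80.4 and AT1G64360 1380.3 ± 28.1 (mean ± SD, n = 3), beside 4456 ± 292, 1018 ± 41.04 and 1647 ± 187 in cauline leaves. EXPA16 stood at 16.05 ± 1.85, AT3G62960 at 49.8 ± 6.001 and SWEET11 at 905 ± 19.1 in senescing leaves, so that these genes were below their cauline levels of 313 ± 28.6, 658 ± 122 and 2151 ± 41.3. EXO was lower still in senescing leaves, at 18.8 ± 0.776. Rosette leaf 12 was also sampled from the line labelled gl1T in the Col-0 background. HTB2 stood there at 204 ± 6.12 beside 222 ± 17.2 in the Col-0 leaf 12, STOMAGEN at 345 ± 46.9 beside 338 ± 33.4 and THI2.1 at 315 ± 6.22 beside 268 ± 15.8. EXO stood at 445 ± 13.6 beside 1545 ± 12.1 and AT2G33850 at 38.02 ± 20.9 beside 530.1 ± 87.5, differences that were not tested here. For EXO and AT2G33850 the size of the cauline difference thus depends on which leaf 12 group is taken. The labels give a length for the Col-0 leaf 12 and none for that of gl1T. Line and leaf size therefore cannot be told apart between these groups. Of the 144 genes named by the rule, cauline leaves ranked first of 20 groups for 17 and last for 10, and all 3 cauline signals were above all 57 other arrays for 13 and below them for 5. These genes were chosen for large differences in the same arrays, which favours extreme ranks. Ranks were not counted for all probe sets, so the rank counts have no background. Of the 2214 higher probe sets 14.1% had all cauline signals above the 57 others, beside 3.01% of all probe sets, and of the 2253 lower ones 6.17% had them below, beside 1.13%. The 57 include the leaf 12 arrays, so part of this separation too comes with the call.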

How the data were processed

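The deposited values were 1 intensity per probe set on a linear scale, made by the authors with MAS5 per the submitters' processing notes. The MAS5 version is not given in the sources used here. Values were analysed as log2(signal + 6.14), the pseudocount being the median over the 60 arrays of the 20th percentile, without further normalization. After leaving out 64 control probe sets, 15808 of 22810 passed a filter, for which all arrays of some group had to exceed their own 40th percentile. One limma model (version 3.58.1, R 4.3.3, intensity trend) covered all 20 groups with 40 residual degrees of freedom. The platform annotation gave 13513 probe sets 1 gene and 503 several, and left 8794 unnamed here, controls included. Of the 13513, 13484 matched RefSeq (TAIR10.1).

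The named genes are the 12 largest increases and decreases among called probe sets with 1 gene, no overlap and a brighter mean past the 60th percentile of group means. To these came the called members of 44 lists, at most 5 a list, together 144 genes. Uncalled and further list members are given as values. Members and lists were chosen with earlier results of these data known, and 24 wrongly matched list entries were dropped, 5 of them after their values were seen. The model was run on simulated data with independent normal noise and planted differences above the threshold. That setting held no array that stood apart, so it is no check on such arrays. Same-lettered replicates deviated together by r of -0.06, -0.06 and 0.07, so letters were not taken as pairs. No sequences were printed.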

Additional observations from a re-analysis of the deposited data

How the results depend on the processing

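The comparison with leaf 12 gave 4457 to 4503 calls (2182 to 2251 higher, 2244 to 2275 lower) when 1 of its 6 arrays was left out, 4467 with the replicate letter as a replicate block, 4444 after quantile normalization, 2992 with a pseudocount 4 times larger and 5089 with a pseudocount of 1. The lower calls numbered 1501 with the larger pseudocount, and a log2 threshold of 0.5 gave 8833 calls, 4624 higher and 4209 lower. Against leaves 10, 8, 6, 4 and 2 the larger pseudocount gave 2318, 1981, 1348, 1008 and 984 calls and the threshold of 0.5 gave 8043, 7507, 6371, 5328 and 4517. The replicate block changed no call of the 144 named genes, and their letters gave no sign of pairing. With the larger pseudocount 21 of the 144 were no longer called and none reversed. With leaf 10 in place of leaf 12, 120 of the 144 stayed called in the same direction, and with leaf 2, 50. Of all probe sets, 22.5% and 9.34% were called against these leaves in either direction. The 144 were chosen by their calls against leaf 12, and the cauline arrays are shared. Part of this agreement therefore comes with the choice. Signs turned against leaf 10 for GH3.3 (-0.037) and BGLU28 (0.16). Against leaf 2 they turned down for AT4G14020 (-0.19), CML41 (-2.02), UGT72E1 (-0.90), LEA4-5 (-0.39), psbA (-0.16), GH3.3 (-0.062), WRKY47 (-0.21), COR47 (-0.97), CYP71B36 (-0.40), AGL30 (-0.014) and ATG8G (-0.0079). They turned up against leaf 2 for CSLC5 (0.12), CRR21 (0.32), ORA47 (0.29), CYP71B22 (1.84), PORB (0.14), ATMYC1 (0.0099), SBTI1.1 (1.61), AGL24 (1.79), SPCH (0.16), SBT1.3 (1.61), TOPII (0.0049), STOMAGEN (0.12), AT5G62210 (0.49), AT1G31690 (0.20), AT4G29020 (1.23) and AT3G16670 (0.32). A partner leaf is a different comparison, so these are values of another leaf, and the cause was not tested. Quantile normalization moved the median difference of all probe sets from 0.04 to 0.02 and the share of higher among called from 49.6% to 48.3%. With 3 arrays a group and no detection calls used, differences of genes near the pseudocount in 1 group depend on it, and 1 cauline and 1 leaf 12 sampling cannot separate leaf type from age, size or plant stage.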
